A study of Mus musculus with 178 samples.

Results

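Fibro-adipogenic progenitors (FAP) of CCR2KO mice were compared between day 3 and day 1 after muscle injury. The comparison holds 6 of the 178 libraries of the series, 3 from day 1 and 3 from day 3, chosen by the population, genotype and day in their titles. All 6 came from the tibialis anterior muscle of CCR2KO mice with the PDGFRa EGFP reporter that the sort used, and all had received notexin, a snake venom toxin that destroys muscle fibres. The sorted cells were CD45-/CD31-/PDGFRa EGFP+, so the gate excluded cells bearing the leukocyte and endothelial surface markers and kept cells with an active PDGFRa reporter. The control group of the genotype comparison, WT FAP, carried the same reporter on a B6 background and was sorted from the same injury model, with 4 libraries on day 1 and 6 on day 3. The labels used here state no age or sex, do not describe the CCR2KO allele, and do not say whether a library is 1 animal or a pool.

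FAP are mesenchymal cells of the muscle interstitium that lay down matrix, secrete signals for muscle stem cells and can become fibroblasts or fat cells. After acute damage they enter the cell cycle, expand for a few days and are then cleared. CCR2 is the receptor that lets monocytes leave the bone marrow and follow chemokines into damaged tissue. In CCR2KO muscle fewer monocyte-derived macrophages are known to arrive, and these macrophages are a known source of signals to FAP.

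The 6 libraries held between 5602064 and 17338110 counts assigned to genes, with day 3 library 1 the shallowest. Ccr2 had 1 count in day 1 library 3 and none in the other 5, where a count of 0 allows up to 3 counts per library; WT FAP libraries held between 3 and 23 Ccr2 counts on day 1 and between 4 and 210 on day 3. Among day 1 libraries the correlation of log2(CPM + 1) lay between 0.881 and 0.956, and among day 3 libraries between 0.944 and 0.973. The lowest day 1 value was that between libraries 1 and 2, and library 2 was also the day 1 library that correlated best with day 3 libraries 1 and 2. Xist stood above 40 CPM in 1 library of each day, day 1 library 2 and day 3 library 2, and below 1 CPM in the other 4. The Y-linked gene Ddx3y stood at 1.85, 14.9 and 8.45 CPM on day 1 and at 83.0, 28.6 and 15.5 CPM on day 3, with no overlap between the days (both genes as CPM of unscaled totals). Libraries of a day also differed in GC content: the Spearman correlation of a library's deviation with the GC content of the transcripts was 0.577, -0.116 and 0.373 on day 1 and -0.338, 0.142 and 0.558 on day 3. The code of day 1 library 3 would name another day if its last part were a day, and the title was used.

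Levels are given as CPM, counts divided by the scaled library total, in the order of libraries 1, 2 and 3. Log2 fold changes compare day 3 with day 1 and are followed by their standard error. A gene was called at an adjusted p under 0.05 by the quasi-likelihood F test of edgeR with Benjamini-Hochberg adjustment, and "rose" and "fell" are used only of called genes. Nothing in the labels says that libraries of a day came from separate animals, so each p-value reflects only how far these libraries spread, which may be technical. In sorted bulk cells, more cells of a kind and more RNA per cell cannot be told apart.

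Between day 1 and day 3, 2756 of 14282 tested genes changed (19.3%). Of these, 1334 rose (9.34% of those tested) and 1422 fell (9.96%), and 807 rose and 318 fell by more than 2 on the log2 scale. For 4982 tested genes (34.9%) the 3 libraries of one day all lay above those of the other. Genes of the interferon response, collagen fibrils and complement lay on the rising side. Genes of DNA replication and ribosome assembly lay on the falling side. The count moved with single libraries: it was 1517 without day 1 library 3, 1274 without day 3 library 1, 1360 without day 3 library 2 and 4578 without day 1 library 2. With the 6 libraries alone in the fit, 1594 genes were called. Across 13264 tested genes the log2 fold change had a Spearman correlation of -0.253 with the GC content and 0.249 with the length of the transcripts. A library's deviation correlated with length at -0.330, -0.251 and -0.152 on day 1 and at 0.200, -0.0272 and -0.111 on day 3, so all day 1 values lay below all day 3 values. With GC offsets per library more genes were called at large, 1836 higher and 2056 lower of 13264. In that refit 12 of 12 interferon response genes, 13 of 14 collagen fibril genes and 9 of 9 complement genes were higher. Lower were 12 of 12 S phase genes and 10 of 13 genes of ribosome assembly. The part of transcript length in these changes was not tested.

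Of the 8 genes with the largest rise whose days did not overlap, several encode secreted proteins. C1qtnf3, which encodes a secreted adipokine related to adiponectin, measured 0, 0.657 and 0 CPM on day 1 and 47.8, 71.3 and 36.5 CPM on day 3 (log2 fold change 7.62 ± 0.95, adjusted p = 0.000525). It was near or at zero in every day 1 library and plainly present in every day 3 library. Hp encodes haptoglobin, the plasma protein that binds free haemoglobin. It measured 3.79, 1.47 and 2.47 CPM on day 1 and 751, 330.5 and 414 CPM on day 3, a 195-fold rise (log2 fold change 7.61 ± 1.19, adjusted p = 0.00164). Hsd11b2, whose enzyme inactivates glucocorticoids, measured 0.776, 0.202 and 0.0650 CPM on day 1 and 23.3, 53 and 71.7 CPM on day 3 (log2 fold change 7.23 ± 0.71, adjusted p = 0.000295). All 3 day 3 libraries lay far above all 3 day 1 libraries for both genes, and a lack of overlap was a condition for naming them. Kif26b, a kinesin family member required for kidney development in mice, rose as well (log2 fold change 6.56 ± 1.18, adjusted p = 0.00321). Car3, a carbonic anhydrase abundant in fat cells, went from at most 0.556 CPM on day 1 to 27.0, 13.7 and 4.09 CPM on day 3 (log2 fold change 6.07 ± 1.21, adjusted p = 0.00515). Each of these calls held in all 6 refits that left out 1 library.

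**Figure D1:**
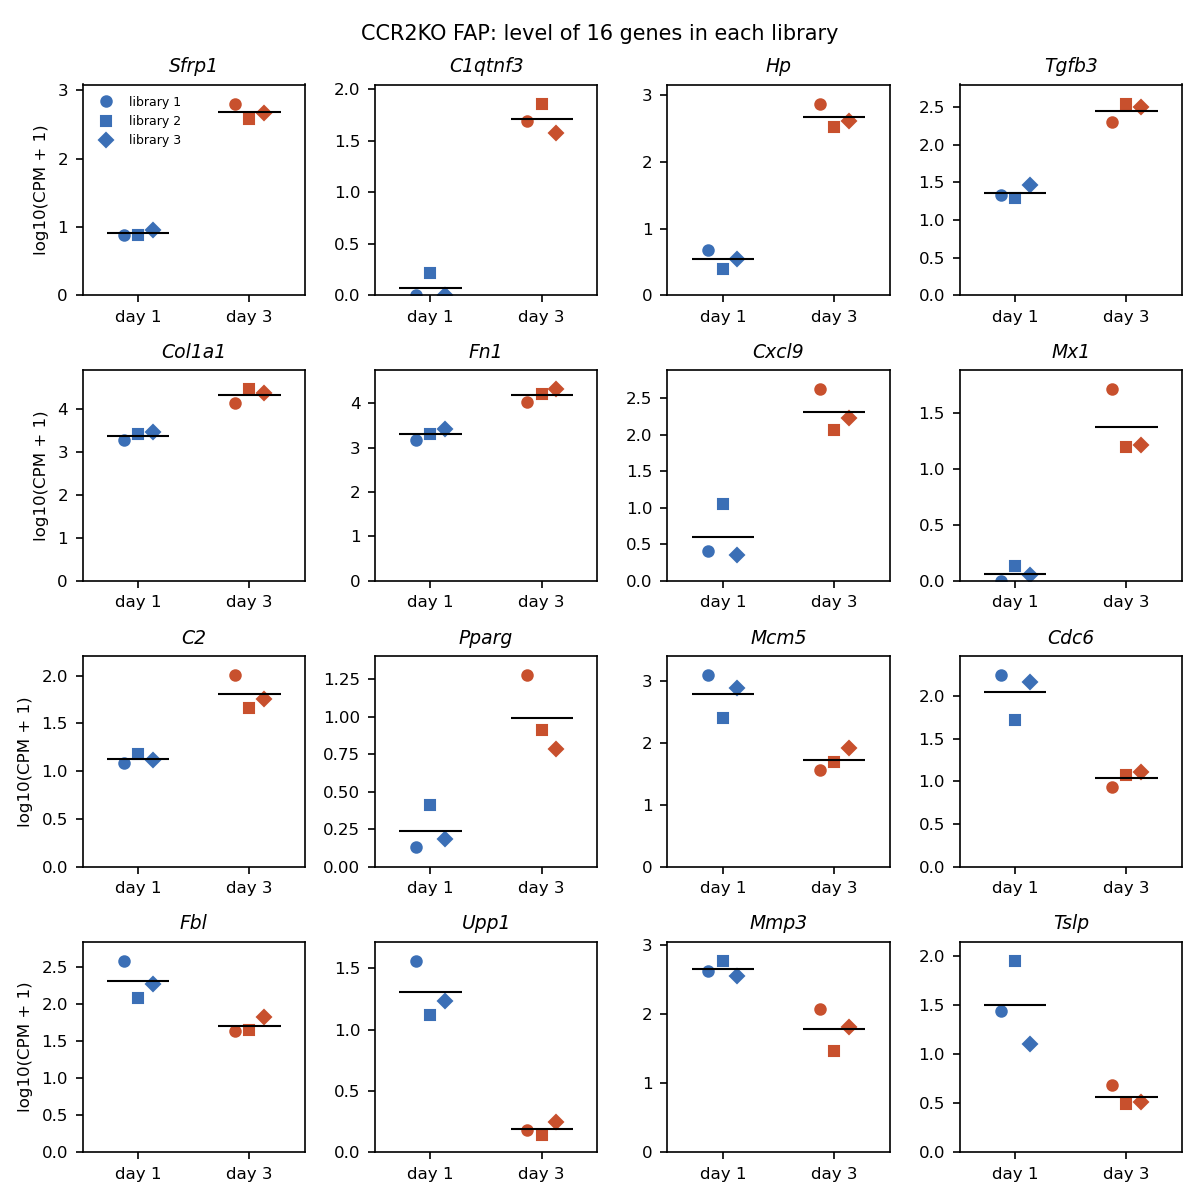
Level of 16 genes in the 3 day 1 libraries (blue) and the 3 day 3 libraries (orange) of CCR2KO FAP, as log10(CPM + 1); symbols mark the library and bars the mean of the plotted values. The days do not overlap for any of the 16, which was a condition for naming those among the largest changes. Sfrp1 is at 7.87 CPM or less on day 1 and 383 CPM or more on day 3.

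The Wnt antagonists Sfrp1 and Sfrp2 rose. Of 11 listed Wnt ligands and modulators, 5 rose and 1 fell, beside 9.34% and 9.96% of all tested genes. Sfrp1 (chr8:23411502-23449632 on mm10) encodes a secreted protein that binds Wnt ligands and keeps them from their receptors. Its level was 6.72, 6.62 and 7.87 CPM on day 1 and 634, 383 and 460.1 CPM on day 3 (log2 fold change 6.12 ± 0.56, adjusted p = 0.000295). The 3 day 1 values lay within about 1 CPM of each other. The related antagonist Sfrp2 measured 9.22, 41.6 and 12.9 CPM on day 1 and 607, 897 and 530.4 CPM on day 3, a 31.9-fold rise (log2 fold change 4.99 ± 0.65, adjusted p = 0.000596), with day 1 library 2 the highest of its day. Wnt9a, a Wnt ligand known from joint and skeletal development, measured 2.15, 3.18 and 2.86 CPM on day 1 and 24.7, 37.4 and 31.3 CPM on day 3 (log2 fold change 3.50 ± 0.35, adjusted p = 0.000295). Dkk3, which encodes a secreted protein of the Dickkopf family, and Rspo3, which encodes a secreted enhancer of Wnt signalling, rose with log2 fold changes of 1.97 ± 0.44 and 2.38 ± 0.79 (adjusted p = 0.00855 and 0.0483). Another ligand went the other way: Wnt2, active in lung and placental development, measured 70.0, 59.2 and 55.2 CPM on day 1 and 5.57, 12.7 and 13.5 CPM on day 3 (log2 fold change -2.52 ± 0.64, adjusted p = 0.016). Dkk2, another member of the Dickkopf family, measured 0.862, 45.4 and 10.3 CPM on day 1 and 20.2, 12.4 and 3.48 CPM on day 3, with overlapping days, and was not called (log2 fold change -0.67 ± 0.93, adjusted p = 0.643). Axin2, a target gene used as a readout of canonical Wnt signalling, was not called (log2 fold change 1.30 ± 0.68, adjusted p = 0.192). The Wnt2 call was lost without day 3 library 1 (adjusted p = 0.0723), and that of Rspo3 without day 1 library 1 or 3 or day 3 library 1 or 2 (adjusted p between 0.110 and 0.140).

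The TGF-beta ligands Tgfb3 and Tgfb2 rose, and the BMP target Id1 fell. Tgfb3, a ligand that drives matrix production in fibroblasts, measured 20.5, 18.5 and 28.6 CPM on day 1 and 197, 352 and 313 CPM on day 3 (log2 fold change 3.67 ± 0.41, adjusted p = 0.0003). Its sister ligand Tgfb2 measured 7.33, 23.4 and 9.37 CPM on day 1 and 74.1, 41.9 and 52.8 CPM on day 3 (log2 fold change 2.07 ± 0.44, adjusted p = 0.00696). The lowest day 3 value lay above the highest day 1 value for both. Tgfb1, the most studied ligand of the family, measured 243, 39.9 and 83.7 CPM on day 1 and 43.5, 99.5 and 239.6 CPM on day 3 and was not called (log2 fold change 0.06 ± 0.65, adjusted p = 0.958). Id1, a direct target of BMP receptors that holds back differentiation, measured 72.1, 33.6 and 24.5 CPM on day 1 and 7.65, 5.93 and 6.44 CPM on day 3, a 6.51-fold fall (log2 fold change -2.70 ± 0.55, adjusted p = 0.00548). Ltbp2, a fibrillin-binding matrix protein, rose (log2 fold change 2.46 ± 0.64, adjusted p = 0.0178), but not without day 1 library 3 (adjusted p = 0.0700) or day 3 library 3 (adjusted p = 0.0548). Of the 13 tested genes of this list 3 rose and 1 fell, beside 9.34% and 9.96% of all tested genes. Without day 1 library 2, 5 rose and 2 fell.

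Genes of collagen fibrils rose almost together. Of 14 listed genes for fibrillar collagens and their assembly, 13 rose and none fell, beside 9.34% and 9.96% of all tested genes. The median log2 fold change of the list was 2.30, against 0.014 over all tested genes. Col1a1, which encodes the main chain of type I collagen, measured 1842, 2568 and 2807 CPM on day 1 and 13284, 27976 and 23415 CPM on day 3 (log2 fold change 3.16 ± 0.61, adjusted p = 0.00423). Its partner chain Col1a2 measured 2258, 3183 and 3573 CPM on day 1 and 17049, 23433 and 17732 CPM on day 3 (log2 fold change 2.69 ± 0.50, adjusted p = 0.0036). Each day 3 library held several times the level of any day 1 library. Col3a1, the fibrillar collagen of early wound matrix, measured 2595, 6874 and 3274 CPM on day 1 and 33416, 38089 and 20605 CPM on day 3 (log2 fold change 2.85 ± 0.54, adjusted p = 0.00397). Lox, whose enzyme cross-links collagen, measured 58.3, 526 and 158 CPM on day 1 and 2767, 2280 and 1551 CPM on day 3 (log2 fold change 3.15 ± 0.65, adjusted p = 0.00631), with day 1 library 2 again closest to day 3. Col12a1, a collagen of the fibril surface, rose 6.27-fold (log2 fold change 2.65 ± 0.62, adjusted p = 0.0106). The 1 member that was not called was Serpinh1, the chaperone of procollagen (log2 fold change 0.54 ± 0.42, adjusted p = 0.393). Without single libraries between 10 and 13 members rose.

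**Figure D2:**
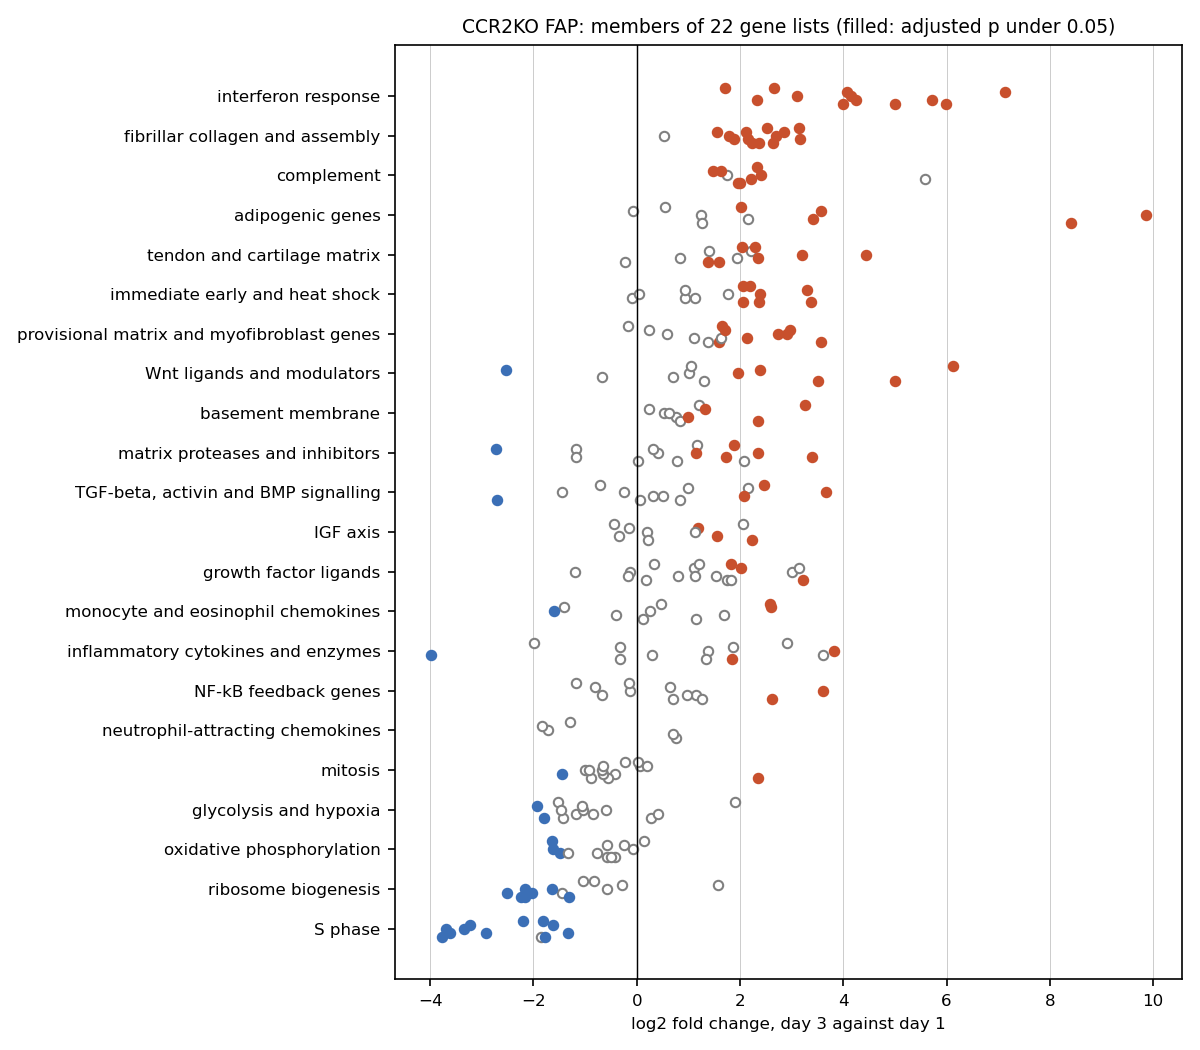
Log2 fold change of day 3 against day 1 for every tested member of 22 gene lists in CCR2KO FAP; filled points were called (orange higher, blue lower), open points were not, and vertical offsets only separate points. All 12 interferon response genes lie to the right of zero and all 12 S phase genes to the left.

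Provisional matrix, the temporary scaffold of a wound, also gained transcripts, with 8 of 14 listed genes higher and none lower. The shares over all tested genes were 9.34% and 9.96%. Fn1, which encodes fibronectin, measured 1462, 2067 and 2667 CPM on day 1 and 10812, 15655 and 20380 CPM on day 3 (log2 fold change 2.92 ± 0.45, adjusted p = 0.00152), and its days did not overlap. Postn, a matrix protein of activated fibroblasts, measured 49.8, 618 and 49.9 CPM on day 1 and 3291, 3562 and 1651 CPM on day 3 (log2 fold change 3.57 ± 0.91, adjusted p = 0.0168). Here day 1 library 2 stood more than 10 times above the other day 1 libraries. Cthrc1, secreted by activated fibroblasts, rose 4.41-fold (log2 fold change 2.14 ± 0.48, adjusted p = 0.00846). Acta2 and Tagln, contractile genes that mark myofibroblasts, were not called (log2 fold change 1.39 ± 0.74, adjusted p = 0.203 for Acta2 and log2 fold change 0.25 ± 0.54, adjusted p = 0.78 for Tagln). The count of this list rested on single libraries: 3 members rose without day 1 library 1, 4 without day 1 library 3, 3 without day 3 library 1, 3 without day 3 library 2 and 5 without day 3 library 3. Postn lost its call without day 1 library 3 (adjusted p = 0.0519).

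Tendon and cartilage matrix genes gave 7 higher and none lower of 12, beside 9.34% and 9.96% of all tested genes. Cilp, a cartilage matrix protein that binds growth factors, measured 127, 93.1 and 121 CPM on day 1 and 1474, 2447 and 3488 CPM on day 3, a 21.7-fold rise (log2 fold change 4.44 ± 0.53, adjusted p = 0.000463). Comp, which bridges collagen fibrils, measured 58.7, 44.5 and 97.0 CPM on day 1 and 310.4, 240.3 and 269.6 CPM on day 3 (log2 fold change 2.03 ± 0.37, adjusted p = 0.00346). Both had day 3 libraries that all exceeded those of day 1. Sox9, the transcription factor of chondrocytes, measured 13.8, 14.9 and 15.3 CPM on day 1 and 65.9, 69.7 and 79.8 CPM on day 3 (log2 fold change 2.29 ± 0.51, adjusted p = 0.00829). The tendon regulator Scx was near 1 CPM and not called (log2 fold change 1.41 ± 0.69, adjusted p = 0.165). Only 4 members of the list rose without day 1 library 1, day 1 library 3 or day 3 library 2, while Cilp, Comp and Sox9 were called in every refit without 1 library.

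In the basement membrane, the sheet that surrounds fibres and vessels, 4 of 10 genes rose, beside 9.34% of all tested genes. Nid2, a linker of laminin and type IV collagen, measured 46.5, 42.9 and 46.2 CPM on day 1 and 527, 297 and 476 CPM on day 3 (log2 fold change 3.26 ± 0.35, adjusted p = 0.000296). The 3 day 1 values agree within 4 CPM. Col15a1, a collagen that anchors basement membranes, measured 142, 109.8 and 88.4 CPM on day 1 and 538, 512 and 688 CPM on day 3 (log2 fold change 2.35 ± 0.37, adjusted p = 0.00168). The chains of type IV collagen itself, Col4a1 and Col4a2, were not called (log2 fold change 0.75 ± 0.43, adjusted p = 0.231 and log2 fold change 0.54 ± 0.40, adjusted p = 0.367). Only 2 members were called without day 1 library 1 or without any 1 of the day 3 libraries, and Nid2 and Col15a1 were called in each of these refits.

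Among matrix proteases and their inhibitors 5 of 14 rose and 1 fell, beside 9.34% and 9.96% of all tested genes. Mmp14, a membrane-bound collagenase, measured 255, 313 and 243 CPM on day 1 and 949, 1089 and 955 CPM on day 3 (log2 fold change 1.88 ± 0.38, adjusted p = 0.00511). Mmp2, the gelatinase that Mmp14 activates, rose by a log2 fold change of 1.72 ± 0.33 (adjusted p = 0.00397), and Mmp23 by 2.35 ± 0.44 (adjusted p = 0.00399). Mmp3, or stromelysin, an inflammation-induced protease, went the other way and measured 425, 597 and 363 CPM on day 1 and 118, 28.2 and 64.4 CPM on day 3 (log2 fold change -2.72 ± 0.56, adjusted p = 0.00626). All day 3 values of Mmp3 lay well below those of day 1. Without day 1 library 3 or day 3 library 1, 3 members rose.

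All 12 genes of the interferon response rose, with a median log2 fold change of 4.12, and the days did not overlap for any of them. Among all tested genes 9.34% rose, and the days did not overlap for 34.9%. Interferons signal through receptors on the cell surface to switch on antiviral genes and the chemokines that draw T cells. Rsad2, which encodes the antiviral enzyme viperin, measured 0.776, 1.36 and 0.130 CPM on day 1 and 103, 18.1 and 27.7 CPM on day 3 (log2 fold change 5.98 ± 0.91, adjusted p = 0.00143). Mx1, an antiviral GTPase, measured 0, 0.354 and 0.130 CPM on day 1 and 50.6, 14.8 and 15.4 CPM on day 3 (log2 fold change 7.13 ± 0.94, adjusted p = 0.000634). Day 3 library 1 was the highest library for both. Isg15, a ubiquitin-like modifier, measured 4.91, 13.0 and 6.31 CPM on day 1 and 189, 101 and 143 CPM on day 3 (log2 fold change 4.15 ± 0.45, adjusted p = 0.000296), and Irf7, the transcription factor that amplifies the response, measured 31.7, 19.4 and 25.6 CPM on day 1 and 522, 273 and 654 CPM on day 3 (log2 fold change 4.24 ± 0.46, adjusted p = 0.000296). The chemokine Cxcl9 measured 1.55, 10.2 and 1.24 CPM on day 1 and 415, 115 and 169 CPM on day 3 and the related Cxcl10 13.4, 8.29 and 1.95 CPM on day 1 and 475, 125 and 153 CPM on day 3, with log2 fold changes of 5.73 ± 0.88 and 4.99 ± 0.83 (adjusted p = 0.00149 and 0.00207). Day 3 library 1 was again highest. Outside the list, the interferon-induced gene Ifi44 was among the 8 largest risers (log2 fold change 6.24 ± 0.99, adjusted p = 0.00168). At least 11 of the 12 were called in each refit without 1 library.

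Since the interferon genes moved together, their promoters are shown for 2 members. The windows run from 250 bases before to 50 bases after the transcription start, from RefSeq on GRCm38.p6, on the gene's strand and 5′ to 3′. Capitals mark matches to GAAANNGAAA on either strand, the core of the interferon-stimulated response element; overlapping matches run together.
Isg15 promoter: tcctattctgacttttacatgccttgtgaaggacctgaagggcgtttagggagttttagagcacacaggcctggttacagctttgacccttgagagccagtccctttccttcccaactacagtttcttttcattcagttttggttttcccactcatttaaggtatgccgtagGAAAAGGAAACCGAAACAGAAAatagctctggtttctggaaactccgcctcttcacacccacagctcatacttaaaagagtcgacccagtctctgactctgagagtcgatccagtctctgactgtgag
Rsad2 promoter: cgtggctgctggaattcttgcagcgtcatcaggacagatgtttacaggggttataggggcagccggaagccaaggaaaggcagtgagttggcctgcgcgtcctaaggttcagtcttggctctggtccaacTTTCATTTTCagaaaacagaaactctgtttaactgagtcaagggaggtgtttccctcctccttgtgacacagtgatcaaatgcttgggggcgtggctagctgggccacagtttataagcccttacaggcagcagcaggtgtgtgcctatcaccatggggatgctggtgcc
The Isg15 window (chr4:156200769-156201068, minus strand) held 3 overlapping matches and the Rsad2 window (chr12:26456403-26456702, minus strand) held 1. Of the 10 interferon response genes with a promoter in the table, 6 held a match (Cxcl10, Gbp2, Ifit1, Ifit3, Isg15 and Rsad2), and 3.44% of all 32851 promoters of the same length did. A match describes the letters only.

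**Figure D3:**
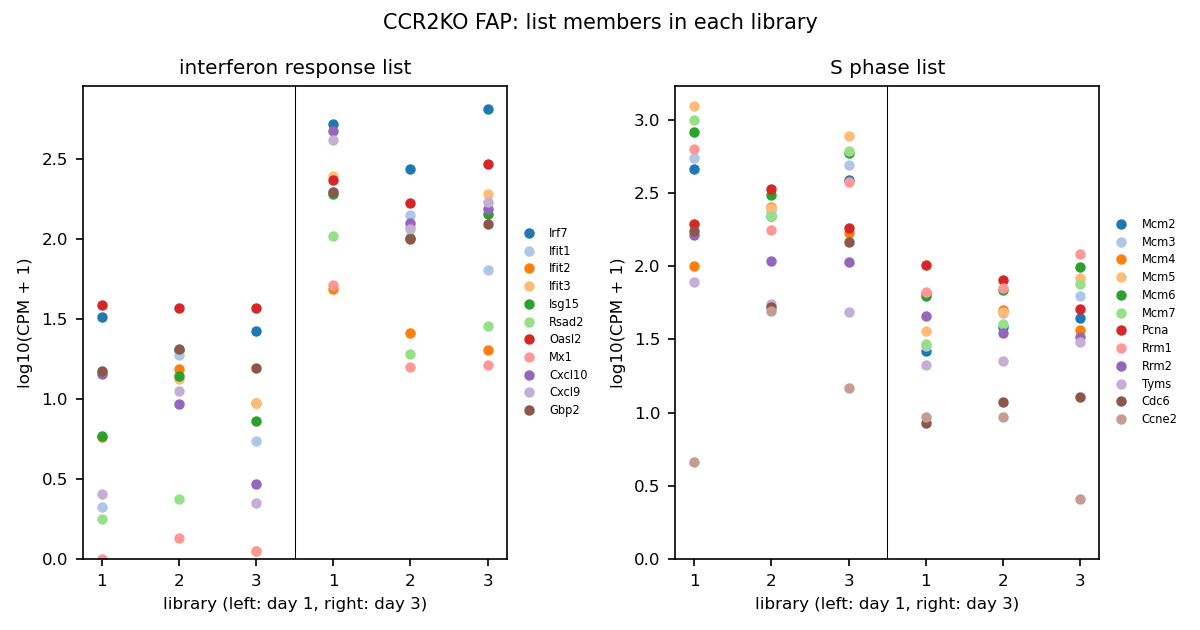
Level of 11 members of the interferon response list (left) and all 12 of the S phase list (right) in each CCR2KO FAP library, as log10(CPM + 1), with 1 colour per gene and the vertical line between day 1 and day 3 libraries. The 11 interferon response genes are higher in every day 3 library, and in the S phase list most genes are lower there, while Ccne2 overlaps.

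Complement, a cascade of plasma proteins that tags and lyses targets, had 7 of 9 listed genes higher and none lower. Among all tested genes 9.34% were higher and 9.96% lower. C2, a protease of the classical pathway, measured 11.3, 14.3 and 12.2 CPM on day 1 and 100.2, 44.5 and 56.5 CPM on day 3 (log2 fold change 2.41 ± 0.39, adjusted p = 0.00193). C4b, its partner in the convertase, measured 40.2, 96.8 and 127 CPM on day 1 and 581, 450.0 and 294 CPM on day 3 (log2 fold change 2.33 ± 0.44, adjusted p = 0.00397). The days did not overlap for these genes. The initiating proteases C1s1 and C1ra rose with log2 fold changes of 2.22 ± 0.47 and 2.00 ± 0.45 (adjusted p = 0.00702 and 0.00846). C3, the central component, measured 1490, 1629 and 1971 CPM on day 1 and 5541, 4314 and 4391 CPM on day 3 (log2 fold change 1.48 ± 0.47, adjusted p = 0.042). The inhibitor Serping1 rose 3.11-fold (log2 fold change 1.64 ± 0.37, adjusted p = 0.00869). C3 lost its call in all 6 refits without 1 library (adjusted p between 0.0587 and 0.126), and 5 members were called without day 1 library 3 or day 3 library 1. Apart from Hp no acute-phase gene was called: Saa3 measured 94.1, 134 and 49.1 CPM on day 1 and 390.0, 82.0 and 111 CPM on day 3 and Lcn2 26.7, 19.2 and 19.0 CPM on day 1 and 63.8, 22.4 and 62.5 CPM on day 3, with overlapping days. Without day 1 library 2 or day 3 library 3 a second acute-phase gene rose.

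Adipogenic genes gave 5 higher and none lower of 10, beside 9.34% and 9.96% of all tested genes. Pparg, the master regulator of fat cell differentiation, measured 0.345, 1.57 and 0.520 CPM on day 1 and 17.9, 7.19 and 5.05 CPM on day 3 (log2 fold change 3.56 ± 0.75, adjusted p = 0.00659). Lpl, the lipase that frees fatty acids from lipoproteins, measured 10.9, 98.8 and 32.8 CPM on day 1 and 949.9, 385 and 194 CPM on day 3 (log2 fold change 3.42 ± 0.76, adjusted p = 0.00846). Day 3 library 1 was highest for both. Zfp423, a transcription factor of committed preadipocytes, measured 15.9, 9.25 and 14.9 CPM on day 1 and 31.1, 59.7 and 70.8 CPM on day 3 (log2 fold change 2.02 ± 0.36, adjusted p = 0.00298). Plin1, a coat protein of lipid droplets, was at 0 in the 3 day 1 libraries and at 14.3, 4.62 and 8.01 CPM on day 3, and Adipoq, the fat cell hormone adiponectin, was at 0 on day 1 and at 5.92, 3.54 and 0.435 CPM on day 3. Both were called, at adjusted p of 0.00152 and 0.0124, and no fold is given because day 1 held no counts. Cebpa, Cebpb and Cebpd, which act beside Pparg, were not called, with log2 fold changes of 1.25 ± 0.51, -0.07 ± 0.77 and 0.55 ± 0.68 (adjusted p = 0.0978, 0.961 and 0.601). At least 5 members rose in each refit without 1 library.

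Of 12 S phase genes 11 fell and none rose, beside 9.96% and 9.34% of all tested genes. The median log2 fold change of the list was -2.56. S phase genes copy DNA or supply its building blocks. Mcm5, a subunit of the replicative helicase, measured 1247, 250.0 and 772 CPM on day 1 and 35.1, 48.0 and 81.9 CPM on day 3 (log2 fold change -3.78 ± 0.65, adjusted p = 0.00246). Mcm7, of the same helicase, measured 997, 218 and 614 CPM on day 1 and 28.5, 39.5 and 74.2 CPM on day 3 (log2 fold change -3.68 ± 0.57, adjusted p = 0.00155). Day 1 library 2 held the lowest day 1 level of both and still stood above every day 3 library. Mcm2 measured 461, 218 and 388 CPM on day 1 and 25.2, 37.2 and 43.1 CPM on day 3, a 10.1-fold fall (log2 fold change -3.33 ± 0.46, adjusted p = 0.000839). Cdc6, which loads the helicase onto origins, measured 174, 51.3 and 144 CPM on day 1 and 7.48, 10.9 and 11.8 CPM on day 3 (log2 fold change -3.61 ± 0.50, adjusted p = 0.00086). The nucleotide-making enzymes Rrm1, Rrm2 and Tyms fell by 4.59-fold, 3.42-fold and 2.51-fold (adjusted p = 0.00698, 0.00712 and 0.0261), and Tyms was not called without day 1 library 1, day 3 library 1 or day 3 library 2 (adjusted p = 0.0697, 0.104 and 0.0952). Ccne2, the cyclin of S phase entry, was the exception (log2 fold change -1.86 ± 0.79, adjusted p = 0.115): it measured 3.62, 48.4 and 13.8 CPM on day 1 and 8.35, 8.33 and 1.57 CPM on day 3, with overlapping days. Among the largest single falls were also Dna2, a replication nuclease (log2 fold change -4.03 ± 0.73, adjusted p = 0.00333), and Aunip, a DNA repair protein (log2 fold change -4.61 ± 0.94, adjusted p = 0.00569). At least 10 members of the list fell in each refit without 1 library.

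Promoters of 2 S phase genes are shown because the group fell together. Windows, build and strand convention are those given above, and capitals mark TTTCGCGC, TTTGGCGC or TTTCCCGC on either strand, letters bound by the E2F family.
Mcm5 promoter: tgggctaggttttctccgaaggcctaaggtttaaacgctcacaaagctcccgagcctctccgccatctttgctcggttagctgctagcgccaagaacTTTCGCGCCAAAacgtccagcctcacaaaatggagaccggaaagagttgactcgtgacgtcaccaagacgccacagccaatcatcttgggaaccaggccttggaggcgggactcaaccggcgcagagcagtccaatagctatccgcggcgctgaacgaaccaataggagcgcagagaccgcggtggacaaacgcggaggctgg
Cdc6 promoter: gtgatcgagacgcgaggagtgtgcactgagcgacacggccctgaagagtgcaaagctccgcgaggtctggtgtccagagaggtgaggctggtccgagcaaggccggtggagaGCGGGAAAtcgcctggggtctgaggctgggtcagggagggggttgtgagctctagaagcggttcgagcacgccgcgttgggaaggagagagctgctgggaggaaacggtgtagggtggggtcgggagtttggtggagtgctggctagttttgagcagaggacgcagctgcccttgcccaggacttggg
The Mcm5 window (chr8:75109259-75109558, plus strand) held 2 overlapping matches and the Cdc6 window (chr11:98907901-98908200, plus strand) held 1. Of the 10 S phase genes in the table, 5 held a match (Cdc6, Mcm3, Mcm5, Mcm6 and Mcm7), against 1.84% of all promoters.

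Of 14 tested mitosis genes 1 rose and 1 fell, near the 9.34% and 9.96% of all tested genes. The other 12 were not called, and the median log2 fold change of the list was -0.60. Mki67, the proliferation marker, measured 13.8, 37.9 and 75.8 CPM on day 1 and 57.9, 33.4 and 39.6 CPM on day 3 (log2 fold change 0.03 ± 0.64, adjusted p = 0.979). Top2a, which untangles chromosomes, measured 44.2, 88.9 and 126 CPM on day 1 and 72.9, 57.5 and 35.1 CPM on day 3 (log2 fold change -0.65 ± 0.50, adjusted p = 0.38). For both the days overlapped. Ccnb2, a mitotic cyclin, was the member that rose, with 8.01, 4.70 and 1.89 CPM on day 1 and 25.6, 25.5 and 23.2 CPM on day 3 (log2 fold change 2.35 ± 0.50, adjusted p = 0.00726). Aurkb, a kinase of chromosome segregation, fell (log2 fold change -1.45 ± 0.43, adjusted p = 0.0298), but lost its call in 5 of 6 refits without 1 library, all except that without day 1 library 2, at adjusted p between 0.0529 and 0.113. RefSeq promoters were at hand for 12 mitosis genes, of which 11 held CCAAT and 9 held TTTGAA on either strand, the core of the cell cycle homology element, against 37.4% and 17.9% of all promoters.

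Genes of ribosome assembly fell as well. Of 13 listed genes 7 fell and none rose, beside 9.96% and 9.34% of all tested genes. The median log2 fold change of the list was -1.44. Rrp9, a component of the particle that trims ribosomal RNA, measured 173, 94.2 and 121 CPM on day 1 and 20.4, 21.2 and 26.1 CPM on day 3 (log2 fold change -2.52 ± 0.44, adjusted p = 0.00269). Fbl, the methyltransferase fibrillarin of the nucleolus, measured 382, 119 and 186 CPM on day 1 and 42.3, 44.3 and 66.9 CPM on day 3 (log2 fold change -2.16 ± 0.44, adjusted p = 0.00563). Every day 3 library lay below every day 1 library. Bop1, needed to mature the large subunit, measured 561, 145 and 315 CPM on day 1 and 43.5, 63.1 and 109.9 CPM on day 3 (log2 fold change -2.24 ± 0.51, adjusted p = 0.00952). Ncl and Npm1, abundant nucleolar proteins, were not called (log2 fold change -1.05 ± 0.63, adjusted p = 0.258 and log2 fold change -0.82 ± 0.59, adjusted p = 0.346). For Ncl, which measured 153, 1424 and 563 CPM on day 1 and 562, 299 and 175 CPM on day 3, day 1 library 2 was the highest of the 6. Myc, which drives this programme in many cells, was higher in each day 3 library, at 116, 235 and 61.8 CPM on day 1 and 502, 378 and 355 CPM on day 3, but was not called (log2 fold change 1.58 ± 0.68, adjusted p = 0.118). Between 6 and 8 members fell without single libraries.

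Several metabolic genes lay on the falling side. Upp1, the uridine phosphorylase that feeds pyrimidine ribose into energy metabolism, measured 35.3, 12.3 and 16.3 CPM on day 1 and 0.522, 0.399 and 0.783 CPM on day 3 (log2 fold change -5.21 ± 0.60, adjusted p = 0.000368). Prodh, which starts proline breakdown in mitochondria, measured 23.6, 8.19 and 21.2 CPM on day 1 and 1.04, 1.03 and 1.31 CPM on day 3 (log2 fold change -3.96 ± 0.61, adjusted p = 0.00152). Both were lower in all day 3 libraries, which was a condition for naming them among the largest falls. In glycolysis 2 of 13 genes fell, Ldha (-1.80 ± 0.42) and Gpi1 (-1.93 ± 0.51), and in oxidative phosphorylation 3 of 12, among them Uqcrc1 (-1.64 ± 0.48) and Cox5a (-1.49 ± 0.40), beside 9.96% of all tested genes. No gene of either list fell without day 3 library 1 or without day 3 library 2. Without day 1 library 1, 1 glycolysis gene fell, without day 1 library 2, 6 fell, and without day 3 library 3, 5 fell, and 2 oxidative phosphorylation genes rose without day 1 library 2. Of the remaining metabolic and stress lists, 2 of 12 genes of ER folding and secretion rose, but none without day 1 library 3 or day 3 library 2, 1 without day 3 library 3 and 4 without day 1 library 2. Of 12 p53 targets 2 rose and 1 fell, the fall being that of Bax, a cell death effector (log2 fold change -1.78 ± 0.31, adjusted p = 0.00277); 1 rose in each refit without 1 library except that without day 1 library 2, where 3 rose. Of 11 genes of oxidative stress and metal response 1 fell, and none did without day 1 library 3 or any 1 of the day 3 libraries. Over all tested genes 9.34% rose and 9.96% fell. Hmga1 and Oaz1, also among the 8 largest falls, have near-identical copies in the genome and their counts are uncertain.

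Among 10 listed genes that attract or sustain monocytes and eosinophils, 2 chemokines rose and 1 growth factor fell, beside 9.34% and 9.96% of all tested genes. Cxcl12, which retains CXCR4-bearing cells, measured 316, 662 and 317 CPM on day 1 and 3747, 2134 and 1872 CPM on day 3 (log2 fold change 2.58 ± 0.50, adjusted p = 0.00418). Cx3cl1, the membrane-bound fractalkine, measured 27.5, 8.29 and 9.04 CPM on day 1 and 63.7, 65.3 and 142 CPM on day 3 (log2 fold change 2.60 ± 0.53, adjusted p = 0.00582). Both were higher in all day 3 libraries. Csf1, the growth factor of macrophages, measured 3467, 1885 and 2465 CPM on day 1 and 855, 677 and 1058 CPM on day 3, a 3.02-fold fall (log2 fold change -1.59 ± 0.35, adjusted p = 0.00846). These 3 calls held in all 6 refits without 1 library. Ccl2, the main ligand of CCR2, measured 585, 1381 and 348 CPM on day 1 and 1728, 484 and 554 CPM on day 3 (log2 fold change 0.26 ± 0.68, adjusted p = 0.821), and its relative Ccl7 263, 639.7 and 215 CPM on day 1 and 1585, 499 and 379 CPM on day 3 (log2 fold change 1.14 ± 0.79, adjusted p = 0.329). The days overlapped for both ligands, and day 3 library 1 held the highest level of each.

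None of the 5 tested neutrophil-attracting chemokines was called, beside 19.3% of all tested genes. Cxcl1 measured 945, 1216 and 125 CPM on day 1 and 2627, 713 and 511 CPM on day 3 (log2 fold change 0.75 ± 0.96, adjusted p = 0.61), and Cxcl5 measured 744, 1156 and 270.0 CPM on day 1 and 455, 81.1 and 76.6 CPM on day 3 (log2 fold change -1.83 ± 1.20, adjusted p = 0.301). The days overlapped for both. In the single pair of libraries that share a code prefix, day 1 library 1 and day 3 library 3, all 5 were lower on day 3. This went against the sign of the fold change for 2 of the 5, Cxcl1 among them. Ccl2 and Tgfb1, also not called, were lower in that pair as well. Of 12 cytokines and enzymes of inflammation, Tslp, an epithelial and stromal alarmin, fell, at 26.8, 89.0 and 11.6 CPM on day 1 and 3.83, 2.11 and 2.26 CPM on day 3 (log2 fold change -3.99 ± 0.74, adjusted p = 0.00375). Il33, another stromal alarmin, rose (log2 fold change 1.85 ± 0.47, adjusted p = 0.0164), but not without day 1 library 1, day 1 library 3 or day 3 library 1 (adjusted p = 0.0526, 0.0709 and 0.0873). Csf3, the granulocyte growth factor, rose with overlapping days (log2 fold change 3.83 ± 1.21, adjusted p = 0.0408), but not without day 1 library 2, day 1 library 3 or day 3 library 1 (adjusted p = 0.0669, 0.126 and 0.280). Il6, the acute cytokine, was higher in each day 3 library, at 32.9, 72.5 and 2.54 CPM on day 1 and 1071, 167 and 76.2 CPM on day 3, but was not called (log2 fold change 3.60 ± 1.32, adjusted p = 0.0707). Day 3 library 1 held most of it. None of the list rose without day 1 library 3 or day 3 library 1, 1 rose without day 1 library 1, and Tslp was called in every refit.

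NF-kB feedback genes, which NF-kB induces and which then dampen it, gave 2 higher of 12, beside 9.34% of all tested genes. Nfkbiz, a nuclear inhibitor-like protein that steers NF-kB target choice, measured 44.7, 52.3 and 11.9 CPM on day 1 and 567, 329 and 433 CPM on day 3 (log2 fold change 3.61 ± 0.69, adjusted p = 0.00414). Tnfaip3, the ubiquitin-editing brake A20, rose (log2 fold change 2.62 ± 0.77, adjusted p = 0.0301) but was not called without day 1 library 2, day 1 library 3 or day 3 library 1 (adjusted p = 0.0510, 0.0813 and 0.128). Nfkbia, the inhibitor IkB-alpha, was not called (log2 fold change 1.26 ± 0.62, adjusted p = 0.165). Without day 1 library 3 or day 3 library 1, 1 gene of the list rose, and without day 1 library 2, 2 fell. Of the promoters in the table, a kappa-B element was found in 5 of 9 in this list and in 3 of 5 of the neutrophil-attracting chemokines, against 8.46% of all promoters. The words searched on both strands were GGGANNCCCC, GGGANNCTCC, GGGANNTCCC, GGGANNTTCC, GGGGNNCCCC, GGGGNNCTCC, GGGGNNTCCC and GGGGNNTTCC.

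Immediate early genes, which respond to stimuli within minutes and also to tissue digestion, gave 7 higher and none lower of 13. The shares over all tested genes were 9.34% and 9.96%. Atf3, a stress-induced transcription factor, measured 55.8, 43.2 and 13.5 CPM on day 1 and 522, 417 and 234 CPM on day 3 (log2 fold change 3.38 ± 0.62, adjusted p = 0.00342). Egr1 measured 824, 528 and 188 CPM on day 1 and 2606, 2563 and 2847 CPM on day 3 (log2 fold change 2.38 ± 0.48, adjusted p = 0.00563) and the related Egr2 rose 9.85-fold (log2 fold change 3.30 ± 0.57, adjusted p = 0.00264). Day 1 library 3 was the lowest day 1 library for each of these. Fos, of the AP-1 factor, measured 1302, 842 and 223 CPM on day 1 and 3071, 3320 and 3480 CPM on day 3 (log2 fold change 2.06 ± 0.50, adjusted p = 0.0137). The heat shock genes Hspa1a and Hspa1b were not called, at log2 fold change -0.09 ± 0.93, adjusted p = 0.958 and log2 fold change 0.04 ± 0.79, adjusted p = 0.983. The part of digestion or handling in these values was not tested. Between 5 and 7 members of the list rose without single libraries, and 4 with the 6 libraries alone in the fit.

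Growth factor ligands gave 3 higher and none lower of 17, beside 9.34% and 9.96% of all tested genes. Angpt1, which steadies vessels through the receptor Tie2, measured 0.862, 9.00 and 4.23 CPM on day 1 and 77.4, 43.0 and 14.0 CPM on day 3 (log2 fold change 3.23 ± 0.71, adjusted p = 0.00829). Pdgfa, a ligand of PDGFRa itself, measured 1.72, 4.30 and 3.45 CPM on day 1 and 8.00, 13.0 and 17.5 CPM on day 3 (log2 fold change 2.02 ± 0.42, adjusted p = 0.00666). The days did not overlap for either gene. Vegfa, the main angiogenic factor, was higher in each day 3 library, at 14.7, 37.3 and 9.43 CPM on day 1 and 135, 43.3 and 39.3 CPM on day 3, and missed the threshold (log2 fold change 1.82 ± 0.67, adjusted p = 0.0706). It was called without day 1 library 2 (adjusted p = 0.0163), and 9 ligands of the list were then higher. Igf1, a growth factor for muscle, measured 20.3, 127 and 35.8 CPM on day 1 and 363, 289 and 210.0 CPM on day 3 (log2 fold change 2.23 ± 0.55, adjusted p = 0.0139), and was not called without day 1 library 3 (adjusted p = 0.0610) or day 3 library 1 (adjusted p = 0.0511). Of 10 IGF axis genes 3 rose, but none without day 1 library 3, 1 without day 1 library 1, day 3 library 1 or day 3 library 2, and 2 without day 3 library 3.

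The label of these cells was checked against their markers, whose sums are given as CPM of unscaled library totals. Genes of stromal progenitor identity summed to between 8976 and 23100 CPM on day 1 and between 63174 and 99213 CPM on day 3. Of these 10 genes 4 rose, 3 of them collagens, beside 9.34% of all tested genes. Pdgfra, which drives the sorting reporter, measured 608, 738 and 1217 CPM on day 1 and 585, 629 and 489 CPM on day 3 (log2 fold change -0.59 ± 0.39, adjusted p = 0.307), with overlapping days. Cd34 and Ly6a, surface proteins of these cells, were also present in every library and not called (log2 fold change -0.46 ± 0.34, adjusted p = 0.361 and log2 fold change 0.92 ± 0.41, adjusted p = 0.127). Among 12 genes of resting progenitors, Clec3b, a plasminogen-binding protein, rose, at 101, 91.5 and 104 CPM on day 1 and 583, 646 and 572 CPM on day 3 (log2 fold change 2.60 ± 0.48, adjusted p = 0.00351), while Pi16 and Dpp4, which mark universal fibroblasts, were not called (log2 fold change 0.92 ± 0.51, adjusted p = 0.223 and log2 fold change 0.35 ± 0.73, adjusted p = 0.766). In this list 4 genes rose without day 1 library 2, and 2 without day 1 library 3 or day 3 library 3.

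Markers of other cell types were summed in the same way. Those of pericytes and smooth muscle summed to between 58.6 and 265 CPM on day 1 and between 165 and 317 CPM on day 3, with overlapping days, and those of endothelial cells to between 36.8 and 42.0 CPM on day 1 and between 49.4 and 54.1 CPM on day 3, without overlap. Tek was the largest part of the endothelial sum, at 10.2, 17.8 and 18.9 unscaled CPM on day 1 and 33.0, 39.7 and 22.1 on day 3. Of the 10 endothelial markers 6 had a negative log2 fold change. The 6 leukocyte markers summed to between 4.54 and 9.49 CPM on day 1 and between 2.83 and 4.46 CPM on day 3, where sorted WT inflammatory cells of these days held between 4235 and 11397 CPM, and none was called. Of 11 macrophage markers 2 rose, Gpnmb and Adgre1, beside 9.34% of all tested genes. Adgre1 stood at 0, 0.461 and 1.37 unscaled CPM on day 3. Gpnmb was called without day 1 library 2 and in none of the other refits without 1 library, and Adgre1 without day 1 library 1 or day 3 library 1 and in no other. Macrophage markers summed to between 24.5 and 43.3 CPM on day 1 and between 69.6 and 76.4 CPM on day 3, most of it from Gpnmb. Myogenic genes did move. The 6 genes of myogenic differentiation summed to at most 0.148 CPM on day 1 and to 37.5, 3.17 and 3.30 CPM on day 3, and 4 of 5 tested rose, while sorted WT myogenic progenitors of day 3 held 842 CPM or more. Satellite cell markers summed to between 3.71 and 11.6 CPM on day 1 and between 20.6 and 49.3 CPM on day 3, with Pax7, Myf5 and Calcr at 0 in every day 1 library. Those genes were also at 0 in day 3 library 3, and Myf5 and Calcr in day 3 library 2. Most of the sum came from Itga7, at 10.9, 3.59 and 8.66 unscaled CPM on day 1 and 30.7, 22.2 and 20.1 on day 3. Of the 6 satellite cell markers 3 rose, but none without day 1 library 3, day 3 library 1 or day 3 library 2, 1 without day 1 library 2 and 2 without day 3 library 3. Day 3 library 1, the highest in these myogenic genes, is also the highest in Mx1, Cxcl9, Lpl and Il6, and the part of other cells in those values was not tested. None of the tested markers of endothelial cells (10), neutrophils (5), mature fibres (12) or red cells (1) was called, but 3 mature fibre markers rose without day 1 library 2 and 2 without day 3 library 3. Of 5 tested T and NK cell, 8 pericyte and smooth muscle and 5 Schwann cell markers 1 each rose (Klrb1c, Mcam and S100b), beside 9.34% of all tested genes. S100b was called in every refit without 1 library. Of the 5 Schwann cell markers 3 had a negative log2 fold change, and 1 fell without day 1 library 1 or without day 1 library 2. The level of Klrb1c was 0 on day 1 and 0.357, 0.173 and 0.886 unscaled CPM on day 3. Klrb1c was not called without day 1 library 3 or day 3 library 1 (adjusted p = 0.0633 and 0.0541) and was not tested without day 3 library 3, and Mcam was not called in 5 of 6 refits, all but that without day 1 library 3.

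The other days of the CCR2KO series place the 2 time points. Mcm5 measured 14.8 and 5.75 CPM in undamaged muscle, was highest on day 1 and was at 86.8 CPM in the single day 2 library. Rrp9 stood at 7.63 and 17.0 CPM on day 0 and 14.5 CPM on day 2. The day 2 library lay below every day 1 library for both, above every day 3 library for Mcm5 and below every day 3 library for Rrp9. Rsad2 stood at 5.04 and 1.49 CPM on day 0, at 23.5 CPM on day 2 and at 1.92 CPM on day 14. Sfrp1 was at 32.8 and 51.3 CPM on day 0, above each day 1 library, and at 1283 CPM on day 6. Hp went from 5.19 and 0.426 CPM on day 0 to 1227 CPM on day 6 and 17.8 CPM on day 14. Cilp was at 420.2 and 1567 CPM on day 0, and its 3 day 1 libraries were the lowest of all 18. Nfkbiz was at 603 and 166 CPM in undamaged muscle, above each day 1 library, and at 84.1 and 41.6 CPM on day 7. Days 2, 4, 5, 6 and 14 had 1 library each, and these courses were not tested.

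**Figure D4:**
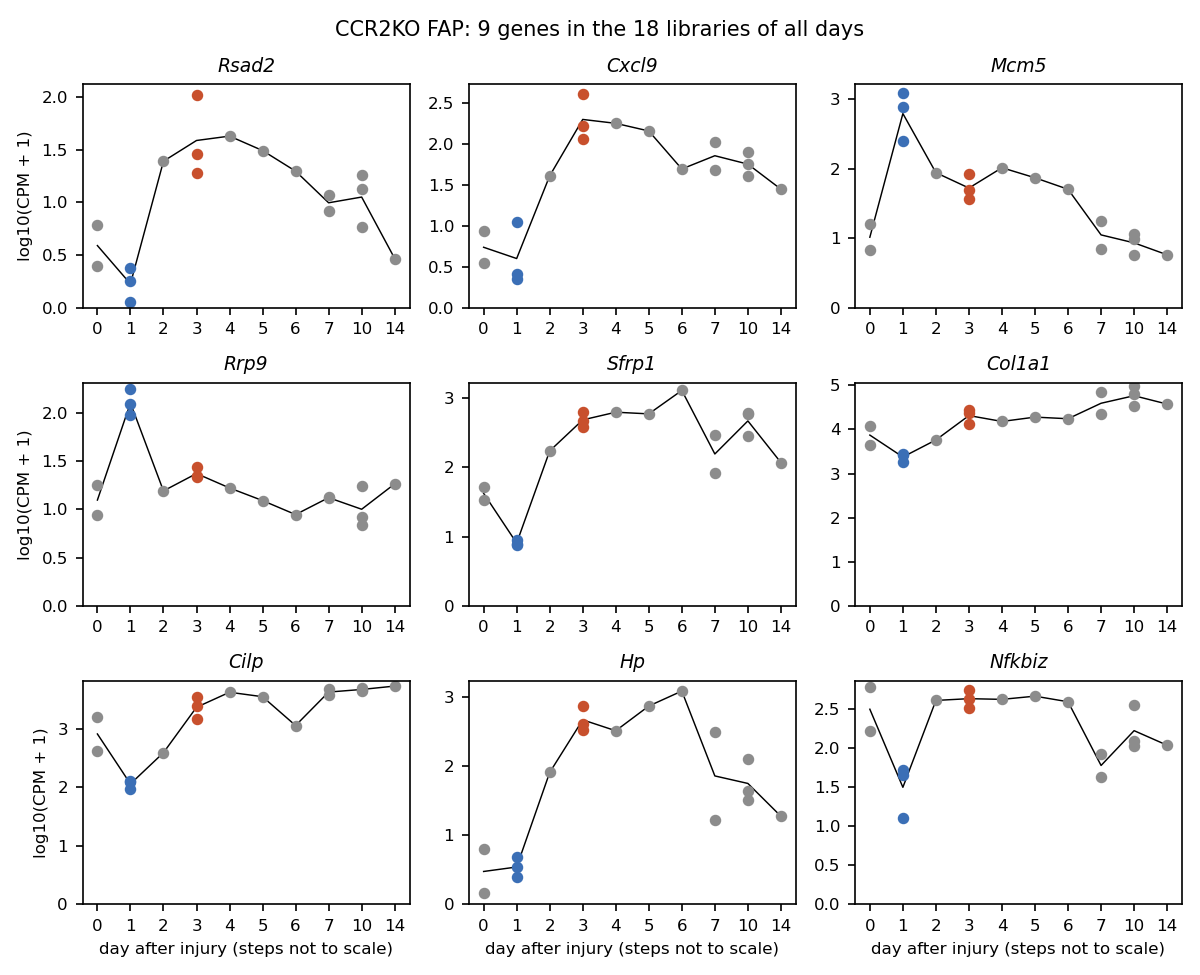
Level of 9 genes in the 18 CCR2KO FAP libraries of all days, as log10(CPM + 1), with day 1 in blue, day 3 in orange, other days in grey and a line through the mean of the plotted values per day. Mcm5 and Rrp9 are highest on day 1, and Cilp and Sfrp1 are lowest on day 1.

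The same interval in WT FAP was fitted together with CCR2KO to ask whether the change depended on the genotype. In that fit of 15391 genes, 3575 changed in CCR2KO (23.2%) and 4212 in WT (27.4%). Called in both in the same direction were 1913 genes, 53.5% of the CCR2KO calls and 45.4% of the WT calls, and 13 genes were called in opposite directions. The change itself differed between genotypes for 96 genes (0.624%), 38 more positive in CCR2KO and 58 more negative. This count rested on single libraries. It was 33, 466 and 27 without CCR2KO day 1 library 1, 2 and 3, and 17, 16 and 8 without CCR2KO day 3 library 1, 2 and 3. It was 17, 40 and 21 without WT day 1 library 1, 2 and 3, and 59 and 62 without WT day 3 library 1 and 2.

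Most listed gene groups showed no gene that differed between the genotypes. Of the 12 interferon genes 11 rose in WT (15.1% of all tested genes rose there) with a median log2 fold change of 2.71, and the test of the difference called none. All 12 S phase genes fell in WT (12.2% of all tested genes fell), and again no difference was called. Collagen fibril genes gave 9 of 14 higher in WT and no called difference. For Cxcl9 the log2 fold change was 5.67 ± 1.15 in CCR2KO and 5.24 ± 0.95 in WT (difference in log2 fold change 0.44 ± 1.21, adjusted p = 0.873). For Fn1 it was 2.89 ± 0.44 and 1.07 ± 0.33 (difference in log2 fold change 1.82 ± 0.52, adjusted p = 0.0848). A difference that misses the threshold does not show that the genotypes changed alike.

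Cholesterol synthesis was the list with most called differences, 7 of 12, all more positive in CCR2KO, beside 0.247% of all tested genes. In WT all 12 genes fell, beside 12.2% of all tested genes, with a median log2 fold change of -2.18. For CCR2KO in the same fit 2 rose, none fell and the median was -0.08. In the fit of CCR2KO alone 1 rose, none fell and the median was -0.04. That CCR2KO count was 0 without day 1 library 1, day 1 library 3 or day 3 library 1, and 4 rose and 3 fell without day 1 library 2. Idi1, which makes the isoprenoid building blocks, measured 1.36, 7.40 and 5.55 CPM on day 1 and 28.1, 11.5 and 8.97 CPM on day 3 in CCR2KO. In WT it measured 13.6, 21, 10.5 and 6.22 CPM on day 1 and between 0.549 and 2.70 CPM on day 3, with a median of 1.60 CPM (difference in log2 fold change 4.80 ± 1.07, adjusted p = 0.0261). Every day 3 library lay above every day 1 library in CCR2KO, where the change was not called in that fit (1.74 ± 0.82), and below in WT. Hmgcs1, which makes the HMG-CoA that the pathway starts from, measured 35.8, 163 and 103 CPM on day 1 and 515, 171 and 183 CPM on day 3 in CCR2KO and 255, 311, 208 and 128 CPM on day 1 and between 33.6 and 91.2 CPM on day 3, with a median of 46.2 CPM in WT (difference in log2 fold change 3.67 ± 0.74, adjusted p = 0.0196). Insig1, the sterol sensor that blocks the pathway, differed by 2.78 (adjusted p = 0.0052). Insig1, like Sfrp1 and Nfkbiz in what follows, was chosen after its values were seen. The Insig1 difference was called in all 16 refits without 1 library. Idi1 lost its call in 8 of 16 refits, those without CCR2KO day 1 library 1 or 3, any 1 of the CCR2KO day 3 libraries or WT day 1 library 1, 2 or 3 (adjusted p between 0.0506 and 0.115). Hmgcs1 lost it in 3, those without CCR2KO day 1 library 1 or 3 or day 3 library 1 (adjusted p = 0.0719, 0.0593 and 0.0994).

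Other genes with a more positive change in CCR2KO included Pim1, a survival kinase, which measured 24.3, 19.6 and 7.63 CPM on day 1 and 313, 91.7 and 89.7 CPM on day 3 in CCR2KO and 58.6, 103, 55.8 and 39.5 CPM on day 1 and between 24.9 and 73.1 CPM on day 3, with a median of 50.2 CPM in WT (difference in log2 fold change 3.67 ± 0.87, adjusted p = 0.0384). Nfatc2, a calcium-regulated transcription factor, measured 2.08, 1.20 and 2.70 CPM on day 1 and 65.9, 22.5 and 39.4 CPM on day 3 in CCR2KO and 3.35, 5.63, 4.24 and 2.21 CPM on day 1 and between 2.61 and 10.6 CPM on day 3, with a median of 6.90 CPM in WT (difference in log2 fold change 3.64 ± 0.81, adjusted p = 0.0261). Sphkap, an anchor for protein kinase A, measured 0.452, 0.381 and 0.0693 CPM on day 1 and 17.4, 9.11 and 5.92 CPM on day 3 in CCR2KO and 5.83, 7.55, 2.99 and 6.22 CPM on day 1 and between 5.97 and 23.7 CPM on day 3, with a median of 8.03 CPM in WT (difference in log2 fold change 4.07 ± 0.90, adjusted p = 0.0261). For Sphkap the libraries of the genotypes overlapped on day 3 but not on day 1, and for Pim1 the CCR2KO libraries lay below WT on day 1 and above it on day 3. Sfrp1 rose in both genotypes, by 6.08 ± 0.51 in CCR2KO and 3.17 ± 0.37 in WT, and the rise was larger in CCR2KO (difference in log2 fold change 2.91 ± 0.53, adjusted p = 0.00993), a difference called in all 16 refits. Nfkbiz rose by 3.57 ± 0.68 in CCR2KO and stood at -0.02 ± 0.49 in WT (difference in log2 fold change 3.59 ± 0.81, adjusted p = 0.0268). The Nfkbiz difference was lost in 8 of 16 refits without 1 library, among them those without any 1 of the CCR2KO day 3 libraries, at adjusted p between 0.0553 and 0.112. Pim1, Nfatc2 and Sphkap were each lost without CCR2KO day 1 library 1 or 3 or day 3 library 1 or 3, among others (adjusted p up to 0.186, 0.115 and 0.114).

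Leukocyte and macrophage markers were among the 58 genes with a more negative change in CCR2KO (0.377% of all tested genes). Of the 6 leukocyte markers all rose in WT and none was called in CCR2KO, and the change differed for 5. Of 11 macrophage markers 10 rose in WT and the change differed for 4. Fcer1g, a signalling chain of Fc receptors, measured 0.995, 0.326 and 1.18 CPM on day 1 and 0.178, 0.764 and 0.370 CPM on day 3 in CCR2KO. In WT it measured 1.02, 1.02, 0.543 and 2.21 CPM on day 1 and between 8.13 and 123 CPM on day 3, with a median of 26.1 CPM (difference in log2 fold change -5.73 ± 1.20, adjusted p = 0.0209). Laptm5, a lysosomal protein of leukocytes, measured 1.81, 0.979 and 3.61 CPM on day 1 and 0.711, 0.764 and 2.22 CPM on day 3 in CCR2KO and 1.17, 1.41, 1.26 and 7.36 CPM on day 1 and between 13.3 and 201 CPM on day 3, with a median of 40.3 CPM in WT (difference in log2 fold change -5.24 ± 1.13, adjusted p = 0.0239). The WT day 3 libraries all lay above every other library for both genes. Fcgr1, an Fc receptor of macrophages, Cd52, a leukocyte surface peptide, and Pld4, an endolysosomal nuclease of myeloid cells, differed by -6.76, -5.38 and -5.17 (adjusted p = 0.0239, 0.0291 and 0.0394). Summed leukocyte markers were between 3.74 and 15.4 CPM in WT FAP on day 1 and between 46.5 and 453 CPM on day 3, against at most 4.46 CPM in CCR2KO on day 3. FAP were sorted as CD45-, and whether these transcripts came from leukocytes among the sorted cells was not tested. All 5 genes lost their call without CCR2KO day 3 library 1, 2 or 3, at adjusted p between 0.0530 and 0.115.

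**Figure D5:**
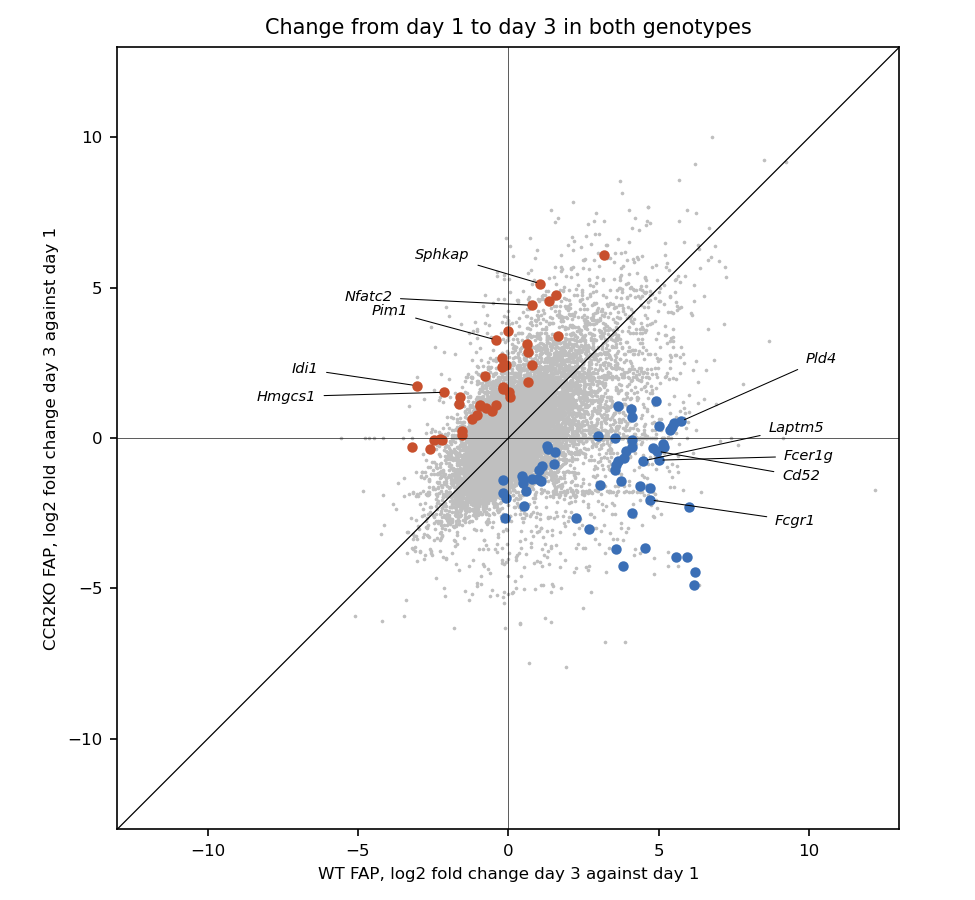
Log2 fold change of day 3 against day 1 in WT FAP (horizontal) and CCR2KO FAP (vertical) for all 15391 tested genes in grey, with the 96 genes whose change differed at an adjusted p under 0.05 in orange (38, more positive in CCR2KO) or blue (58, more negative); the line marks equal change. The named leukocyte genes lie near 5 on the WT axis and near or below 0 on the CCR2KO axis.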

How the data were processed

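RNA counts per gene symbol were used as the authors deposited them, in 1 table per population and genotype; 4 of 9 tables were read. Per the submitters' processing notes, bcl2fastq, Bowtie and STAR were used on mm10, while what each did, how reads were counted and on which strand and gene models is not stated in the labels. The kit was strand-marking, per the labels' protocols. Counts of overlapping, antisense and near-identical genes are therefore uncertain. Entries for reads in no feature (3.09% to 7.07% of counts in the 6 libraries) and for ambiguous reads stayed out. Coordinates are from GENCODE M21 (GRCm38), which held 23336 of 24421 symbols once.

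Genes were tested by quasi-likelihood F test (edgeR 4.0.16, R 4.3.3) after filterByExpr and TMM scaling, with Benjamini-Hochberg adjustment over all tested genes. The CCR2KO comparison was fitted on all 18 CCR2KO FAP libraries with 1 mean per day, and the genotype difference on all 50 FAP libraries with 1 mean per genotype and day; CPM are scaled within each fit, so levels differ slightly between them. The fits were tested on simulated data. None of the 6 libraries was a duplicate of another (lowest chi-square per gene within a day 56.2). The members and the 40 gene lists were chosen with earlier results of these data known. The rule named the 8 largest called changes per direction without overlap, up to 4 called genes per list and 5 per direction of the genotype difference, at 10 CPM or more; Ccr2, Pdgfra and Vegfa were added. Other list members are named beside them, a few are not reported here, and the motifs of the interferon and S phase promoters were chosen after the lists' values were seen. Alternatives were RLE scaling, no filter, other sets of libraries, a replicate block, GC offsets (added after seeing the data), DESeq2 1.42.0 and leaving out each library.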

Additional observations from a re-analysis of the deposited data

Results flagged for a closer look

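The change from day 1 to day 3 differed between CCR2KO and WT FAP, by the test of the difference itself, for the 10 genes named by rule. The log2 fold change of CCR2KO minus that of WT was 4.80 for Idi1, 4.07 for Sphkap, 3.67 for Pim1, 3.67 for Hmgcs1 and 3.64 for Nfatc2. It was -6.76 for Fcgr1, -5.73 for Fcer1g, -5.38 for Cd52, -5.24 for Laptm5 and -5.17 for Pld4. Each of the 10 lost its call in at least 3 of the 16 refits without 1 library.

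Single WT libraries stood apart from their group in some of these genes. WT day 3 library 1 lay far above the other 5 for Fcer1g (123 CPM), Cd52 (32.4 CPM), Laptm5 (201 CPM) and Pld4 (38.2 CPM). WT day 3 library 5 was high for Hmgcs1 (91.2 CPM), WT day 1 library 2 for Cd52 (1.15 CPM) and WT day 1 library 4 for Laptm5 (7.36 CPM). They were set apart by the Dixon ratio, the gap to the nearest library divided by the range of the group, on unlogged CPM. These are 7 of 20 groups tested. The nominal rate of about 1 in 20 assumes normally distributed values, which was not tested for these CPM. The 4 leukocyte genes of WT day 3 library 1 are not independent of each other.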

How the results depend on the processing

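For CCR2KO FAP, the number of called genes was 2756 and stayed between 2049 and 3892 under RLE scaling, no filter on low counts, all 50 FAP libraries in the fit, the replicate block, GC offsets per library (3892, of which 2603 were called in the same direction before) and DESeq2. It was 1594 with the 6 libraries alone, of which 1570 were among the 2756, and between 1274 and 4578 without single libraries. For WT it lay between 2988 and 4383 without single libraries. The genotype difference gave 96 genes, 44 with the replicate block, 479 with DESeq2 and between 8 and 466 without single libraries; 95, 76 and 139 were called with RLE scaling, no filter and days 1 and 3 alone. The causes of these shifts were not tested. No tested gene named by the rule changed direction in any of these alternatives. Other named genes were not all refitted, and the uncalled Cxcl1, Ccl2 and Tgfb1 were lower within the pair that shares a code prefix.

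Deviations from the day means correlated at -0.604, 0.228 and 0.146 between same-numbered libraries. Whether the replicate numbers pair the libraries cannot be told from these values. With the replicate block, 2049 genes were called in CCR2KO and 3623 in WT. The pair that shares a code prefix correlated at 0.732, and day 1 library 2 with day 3 library 1, whose codes share no prefix, at 0.645. Depth limits genes near 1 CPM, above all in day 3 library 1.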
